A study of Mus musculus with 4 samples.

Results

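The Cyp4 genes encode microsomal cytochrome P450 enzymes that put a hydroxyl group on the terminal (omega) carbon of fatty acids, eicosanoids and related lipids. Signals of 10 of them, Cyp4a10, Cyp4a12a, Cyp4a12b, Cyp4a14, Cyp4a31, Cyp4f13, Cyp4f14, Cyp4f15, Cyp4v3 and Cyp4b1, were taken from microarrays of mouse liver RNA, by the gene name that the array files give each probe. These 10 of the 37021 named genes have 14 of the 56605 probes, and all 14 probes were well above background on every array. The RNA came from C57BL/6 wild-type mice, 6 weeks old, that were injected i.p. on 5 days of each week over 3 weeks. Aristolochic acid I (AAI), a nephrotoxin of Aristolochia plants, was given in corn oil at 5 mg/kg/day to females (AAI females below) and at 2 mg/kg/day to males (AAI males), and corn oil alone to the control groups (corn oil females and corn oil males). Total liver RNA from 5 mice of a group was pooled and read on 1 single-color array, so each group is 1 pool, no spread between mice can be estimated and no test was made. The dose differs between the sexes, so that sex and dose cannot be told apart in the AAI pools.

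Omega-hydroxylation is the first step of a minor route of fatty acid breakdown. The omega-hydroxy acid is oxidized to a dicarboxylic acid by alcohol and aldehyde dehydrogenases, and the dicarboxylic acid is shortened by beta-oxidation in peroxisomes. In rodent liver, Cyp4a10, Cyp4a14 and Cyp4a31 are classical targets of the fatty acid receptor PPARα, whereas the Cyp4a12 genes are known for higher levels in males and encode the enzymes that omega-hydroxylate arachidonic acid. The Cyp4f enzymes act on leukotrienes and other eicosanoids, Cyp4v3 is the mouse counterpart of human CYP4V2, a fatty acid hydroxylase, and Cyp4b1 is best known from lung, where it activates plant furans.

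Sequence likeness bears on what a probe of this family reads, so some probe sequences are shown first, as the array files give them. Of the 91 pairs among the 14 probes, aligned without gaps over at least 20 bases, only 1 pair reached 80% identity. It joins a Cyp4a10 probe (NM_010011, base 782 of the transcript) and a Cyp4a31 probe (NM_001252539, base 736), which share 22 of 26 overlapping bases. The 4 bases that differ are in capitals, and the annotation lists the latter probe for both genes. Neither is the brightest probe of its gene, so the main values of Cyp4a10 and Cyp4a31 come from other probes.
Cyp4a10: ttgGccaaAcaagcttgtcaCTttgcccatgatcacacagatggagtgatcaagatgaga
Cyp4a31: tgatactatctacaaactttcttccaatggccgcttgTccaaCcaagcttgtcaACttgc
The annotation lists all 3 Cyp4a10 probes also for Cyp4a32, which has no probe under its own name. For the Cyp4a12 pair, the first 30 bases of each probe are shown because these genes carry the largest differences. The Cyp4a12a probe is also listed for Cyp4a12b. Probes were aligned only with each other, so low likeness between probes does not show that a probe misses RNA of another gene. Whether these probes bind RNA of the other genes was not tested.
Cyp4a12a (first 30 bases): atgcatatctgaaagagccaattttcaacc
Cyp4a12b (first 30 bases): cctttcagcttacatttaagagtcttgcca

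Signals are given as log2 of the normalized array intensity. Probes differ in brightness for reasons other than RNA amount, so levels are compared between pools for the same probe, not between genes. A gene with several probes is represented by its brightest one. As a technical scale, where a gene had several probes, the SD of their log2 ratios had a median of 0.25 for females (9128 genes) and 0.24 for males (8618 genes). The scanner software put the relative error of a member probe at 10% to 13.5%.

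The liver origin of the RNA was checked with 10 hepatocyte genes, all of which were above background in every pool and none of which differed 2-fold in any comparison. Their median log2 signal was 17.27 to 17.44. Among the brightest probes, quantile normalization brings the arrays together, and Alb had 19.12 in both corn oil pools and AAI females. The likeness of these genes between pools is therefore in part set by the processing. Marker genes of other tissues differed between the pools. The summed signal of 6 skeletal muscle genes was 833 for corn oil females and 27449 for AAI females, and 3240 and 202397 for the respective male pools. The sum of 7 fat genes was 4740 and 5814 in females and 7968 and 84692 in males, and that of 7 adrenal cortex genes was 1658, 1704, 3470 and 39238 in the same order. For 5 adrenal medulla genes the sums were 2822 and 2789 in females and 3720 and 17824 in males. All 6 muscle genes were at least 2-fold higher with AAI in each sex, while 5 of 7 fat, 5 of 7 adrenal cortex and 3 of 5 adrenal medulla genes were higher in males and 1 adrenal cortex gene, Mc2r, was lower. In females 2 of 6 fat genes measured were higher and no adrenal gene was. Ucp1, the thermogenic protein of brown fat, and Cyp11b2, the adrenal aldosterone synthase, were dim in both female pools, where their probes were not well above background. Kidney and lung genes varied less, with sums of 2516 to 3369 over 10 kidney genes and of 1731 to 3021 over 5 lung genes. The sum of 6 leukocyte genes was 37957 and 40711 in the female pools and 13272 and 21359 in the male pools, and that of 5 intestinal genes was 30454, 30367, 56248 and 32414. Fabp2 made up most of the intestinal sum, with log2 signals of 14.88, 14.87, 15.77 and 14.97. No other gene of that list exceeded 8.12 in any pool. The part of RNA from such tissues in the Cyp4 values was not tested. In pooled tissue RNA, fewer cells of a type and less RNA per cell cannot be told apart.

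Cyp4a12a, Cyp4a12b and Cyp4v3 had their highest level in corn oil males and a lower one in AAI males. Cyp4a10 and Cyp4a31 were moderately higher with AAI in both sexes, and the remaining members differed by less than 2-fold without a common direction. In females, no member was higher by 2-fold or more after AAI, beside 1.37% of the 31682 genes measured, and no member was lower, beside 3.09%. In males, no member was 2-fold higher, beside 3.51% of 30539 genes, and 3 of 10, Cyp4a12a, Cyp4a12b and Cyp4v3, were lower, beside 4.59%. In this and later counts, Cyp4a12a and Cyp4a12b may not be separate measurements, because the Cyp4a12a probe is also listed for Cyp4a12b. The median log2 ratio of the 10 members was -0.14 in females and -0.13 in males, against 0.04 and 0.00 over all genes. Of the 10 ratios, 4 were above 0 and 6 below 0 in each sex.

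**Figure D1:**
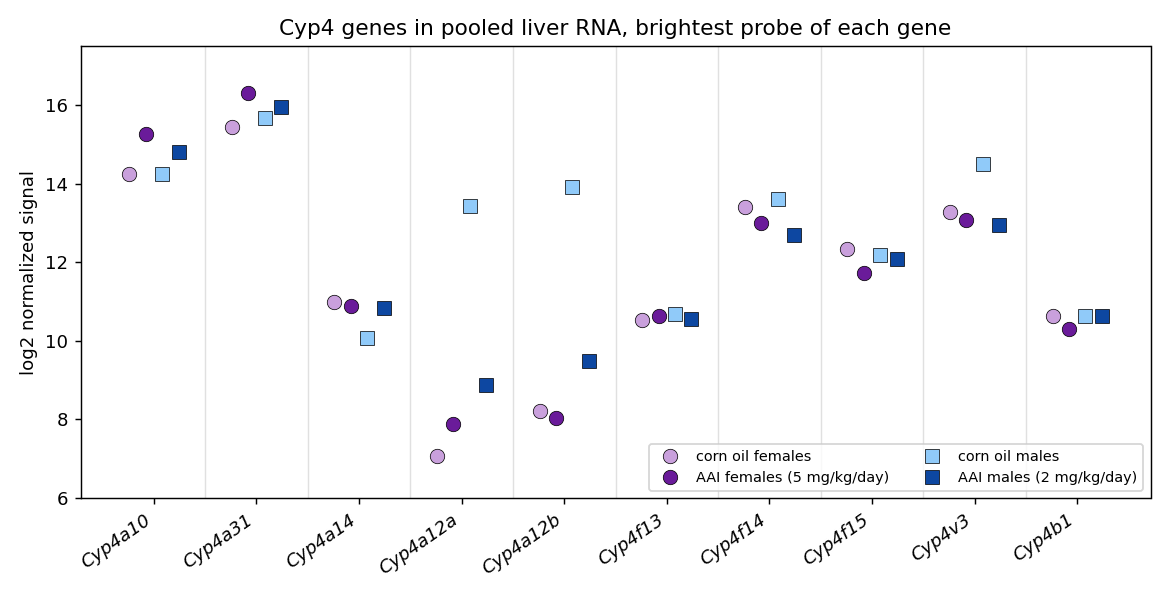
Log2 normalized signal (vertical axis) of the brightest probe of each of the 10 Cyp4 genes (horizontal axis) in the 4 pools, 1 array of 5 pooled mice each, circles for females and squares for males, pale for corn oil and dark for AAI. Cyp4a12a and Cyp4a12b stand at 13.42 and 13.92 in corn oil males and at 9.49 or lower in the other pools, while points of different genes come from different probes and are not comparable in height.

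Cyp4a10 was higher in both AAI pools. Its brightest probe, on chromosome 4 of mouse build mm9 (115205268 to 115205756), had log2 signals of 14.25 in corn oil females, 15.25 in AAI females, 14.25 in corn oil males and 14.82 in AAI males. The corn oil pools had the same level, and the AAI female pool was the highest. The ratio in females was 0.999, just under 2-fold, so that the gene is not counted above, and in males it was 0.57. The other probes gave larger ratios, of 1.14 and 1.34 in females and of 0.70 and 0.97 in males. Over the 3 probes the mean log2 ratio was 1.16 ± 0.17 (SD, n = 3 probes) in females and 0.74 ± 0.21 in males. These probes read the same RNA pools, so that this SD holds no difference between mice. Among 29714 genes above background in both female pools, the ratio of the brightest probe ranked 336 from the top, and among 28433 genes in males 2692.

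The likeness to Cyp4a10 extended to Cyp4a31, its neighbor on chromosome 4, whose product belongs to the same group of fatty acid hydroxylases. The brightest Cyp4a31 probe (NM_201640, 115251553 to 115251612) had 15.44 and 16.30 in corn oil and AAI females and 15.67 and 15.94 in the male pools. Its log2 ratios were 0.86 in females and 0.27 in males. The second probe, the one shown above to resemble a Cyp4a10 probe, had 11.39, 12.53, 11.10 and 11.84 in the same order, with ratios of 1.14 and 0.74. All 5 probes of both genes were higher with AAI in each sex, and each of them had the larger ratio in females, who received the higher dose. Whether the ratios of the sexes differ was not tested. When a gene was taken as the mean of its probes, Cyp4a10 and Cyp4a31 both reached 2-fold in females, Cyp4a10 with 1.16. Over all genes, 403 of 31698 were higher by 2-fold in that setting.

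Cyp4a14, also known as a PPARα target, did not follow them in females. Its probe (NM_007822, 115168609 to 115168668) lies near the start of the transcript, at base 78. Its log2 signal was 10.99 for corn oil females, 10.87 for AAI females, 10.08 for corn oil males and 10.83 for AAI males. Corn oil males were the lowest pool, and the other pools lay between 10.83 and 10.99. The ratio was -0.12 in females, below the SD between probes, and 0.75 in males.

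The Cyp4a12 genes showed the largest differences of the family. For Cyp4a12a (NM_177406, 115005258 to 115005317) the log2 signals were 7.07 in corn oil females, 7.89 in AAI females, 13.42 in corn oil males and 8.88 in AAI males. The signal in the AAI male pool was 23.2-fold lower than in the corn oil male pool, a log2 ratio of -4.54, while in females the ratio was 0.82. For Cyp4a12b (NM_172306, 115111580 to 115111639) the signals were 8.21, 8.05, 13.92 and 9.49, and the ratios were -0.16 in females and -4.43 in males, which is 21.5-fold lower. Among the 28433 genes above background in both male pools, Cyp4a12a ranked 9 and Cyp4a12b 11 from the lowest ratio. The AAI male pool remained above both female pools for both genes. Muscle, fat and adrenal genes were also higher in this pool, as given above. The 10 hepatocyte genes had a median log2 ratio of -0.04 in males, a value that the normalization in part sets. Whether RNA of other tissues contributed to the Cyp4a12 ratios was not tested.

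**Figure D2:**
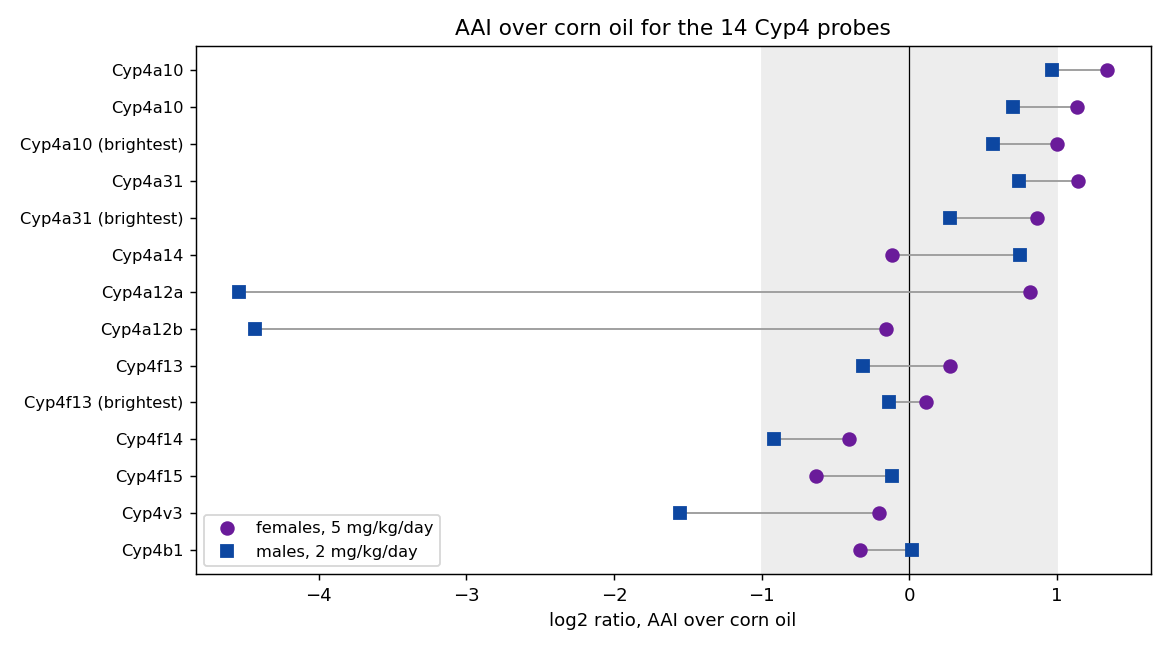
Log2 ratio of AAI over corn oil pools (horizontal axis) for each of the 14 probes (rows), circles for females and squares for males, joined by a line, with the range under 2-fold shaded. The 5 probes of Cyp4a10 and Cyp4a31 lie to the right of 0 in each sex, and Cyp4a12a and Cyp4a12b lie at -4.54 and -4.43 in males.

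Among the remaining members, Cyp4v3 had the widest range. Its probe (NM_133969, chromosome 8, 46391395 to 46391454) had 13.28 and 13.08 in corn oil and AAI females, and 14.50 and 12.95 in the male pools. The log2 ratio was -1.55 in males, 2.93-fold lower, and -0.20 in females. The 3 pools other than corn oil males lay between 12.95 and 13.28. Cyp4f14 (NM_022434, chromosome 17, 33042214 to 33042273), a leukotriene hydroxylase, had 13.41, 13.00, 13.60 and 12.69 in the order of corn oil and AAI females and males. Its ratios were -0.41 and -0.92, lower in both sexes. Cyp4f15 (NM_134127, chromosome 17, 32840088 to 32840147), which acts on eicosanoids too, had 12.34, 11.71, 12.19 and 12.07. Its ratio was -0.63 in females, and in males it was -0.12, smaller than the SD between probes.

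Cyp4f13 and Cyp4b1 differed little between pools. The brighter Cyp4f13 probe (NM_130882, chromosome 17, 33062503 to 33062650) lay between 10.52 and 10.68 in the 4 pools, with ratios of 0.12 in females and -0.13 in males. The second Cyp4f13 probe, with signals of 5.62 to 6.29, had 0.27 and -0.31. Cyp4b1 (NM_007823, chromosome 4, 115297406 to 115297465) had 10.64, 10.31, 10.62 and 10.64, with ratios of -0.33 in females and 0.02 in males.

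The design also allows the sexes to be compared within a treatment. With corn oil, 3 of the 10 members were at least 2-fold higher in males, beside 3.83% of 30891 genes, and none was lower, beside 1.86%. These were Cyp4a12a with 81.5-fold, Cyp4a12b with 52.4-fold and Cyp4v3 with 2.33-fold, the same members that were lower after AAI in males. Both comparisons use the corn oil male array, so a high value on it alone enters both. Among 29111 genes above background in both corn oil pools, Cyp4a12a ranked 3 and Cyp4a12b 6 from the highest ratio of males over females. With AAI, the difference was 1.98-fold for Cyp4a12a, 2.72-fold for Cyp4a12b and 1.09-fold, toward females, for Cyp4v3. Then 1 of 10 members, Cyp4a12b, was 2-fold higher in males, beside 3.25% of 31494 genes, and none was lower, beside 1.17%. The count of higher members was 2 with the normalized intensities that the authors deposited, where Cyp4a12a also passed, beside 1063 of 31494 genes. Cyp4a14 was 1.88-fold higher in females with corn oil, a log2 ratio of -0.91, and differed by -0.04 with AAI. For Cyp4a10 the log2 difference of males from females was -0.00 with corn oil and -0.43 with AAI, and for Cyp4a31 it was 0.23 and -0.36. The sign with corn oil changed between processing settings for Cyp4a10, Cyp4a31 and Cyp4f14.

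**Figure D3:**
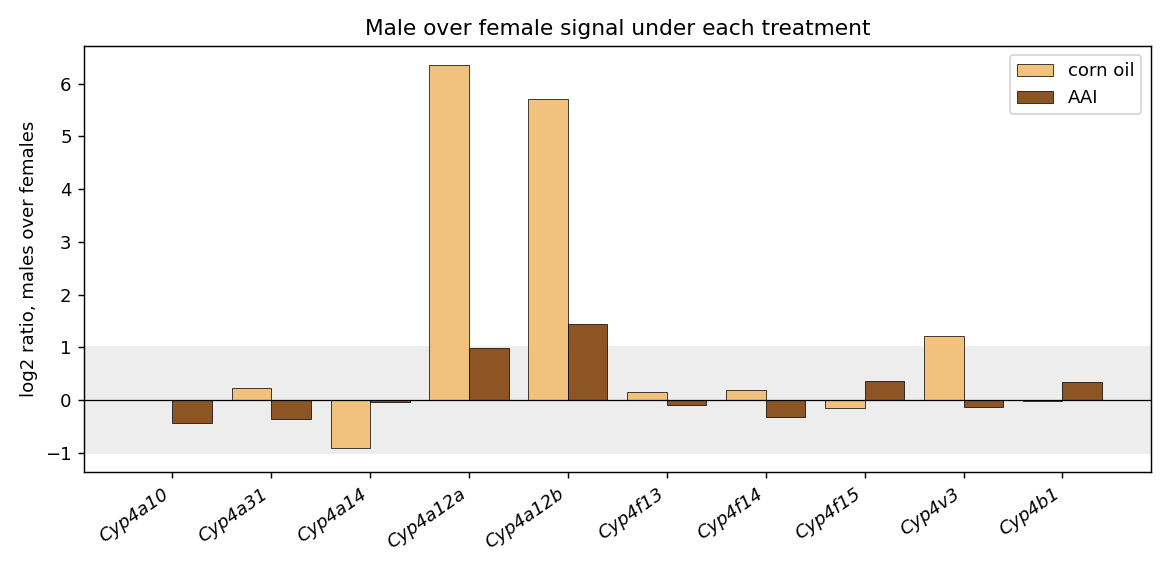
Log2 ratio of male over female pools (vertical axis) for the brightest probe of each Cyp4 gene (horizontal axis), pale bars for corn oil and dark bars for AAI, with the range under 2-fold shaded. The bars of Cyp4a12a and Cyp4a12b are 6.35 and 5.71 with corn oil and 0.99 and 1.44 with AAI, where the doses of the sexes differ.

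Of the genes above background in all pools (28188), those whose pattern lay nearest to Cyp4a12a were sought by the Euclidean distance of log2 signals centered over the 4 pools. Cyp4a12b was the nearest (0.70), followed by Cml5 (1.21), Cyp7b1 (1.43), Elovl3 (1.44) and Klhdc8b (1.75). The Cyp4a12a probe is also listed for Cyp4a12b, so the nearest match may not be a separate measurement. Cyp7b1, an oxysterol hydroxylase of bile acid synthesis, had 9.62 and 9.93 in females and 14.06 and 11.00 in males. Elovl3, a fatty acid elongase, had 7.69, 6.89, 13.58 and 7.87. Both belong to a list of 15 genes known for higher levels in male liver. For Cyp4v3 the nearest genes were Il21, Atp6v1g3, Tmprss9, Mapk8ip2 and Gm26910, at 0.059 to 0.066. Il21, a T cell cytokine, had 7.80, 7.64, 8.98 and 7.45, highest in corn oil males like Cyp4v3. These likenesses rest on 4 arrays and are descriptions.

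The Cyp4a genes lie side by side on chromosome 4, and their ratios in males differed along this cluster. From the brighter Cyp4x1 probe, Cyp4a12a lay 226 kb and Cyp4a12b 333 kb away, with ratios of -4.54 and -4.43 in males. Cyp4a14 at 390 kb, the Cyp4a10 probes at 418 to 426 kb and the Cyp4a31 probes at 464 to 473 kb had ratios of 0.27 to 0.97 in males. The pseudogene Cyp4b1-ps2 at 476 kb had -1.13 in males, and the Cyp4x1 probe had -1.15. Cyp4b1 followed at 518 kb with 0.02. Cyp4a30b, whose probe lies between those of Cyp4a12b and Cyp4a14, had 4.61 and 4.63 in females and 5.24 in corn oil males, and was not well above background in AAI males. At lower coordinates than the cluster, the probes of Stil, Tal1 and Pdzk1ip1 that were above background in all pools had ratios of -0.01 to 0.52 in males and of -0.30 to 0.59 in females.

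**Figure D4:**
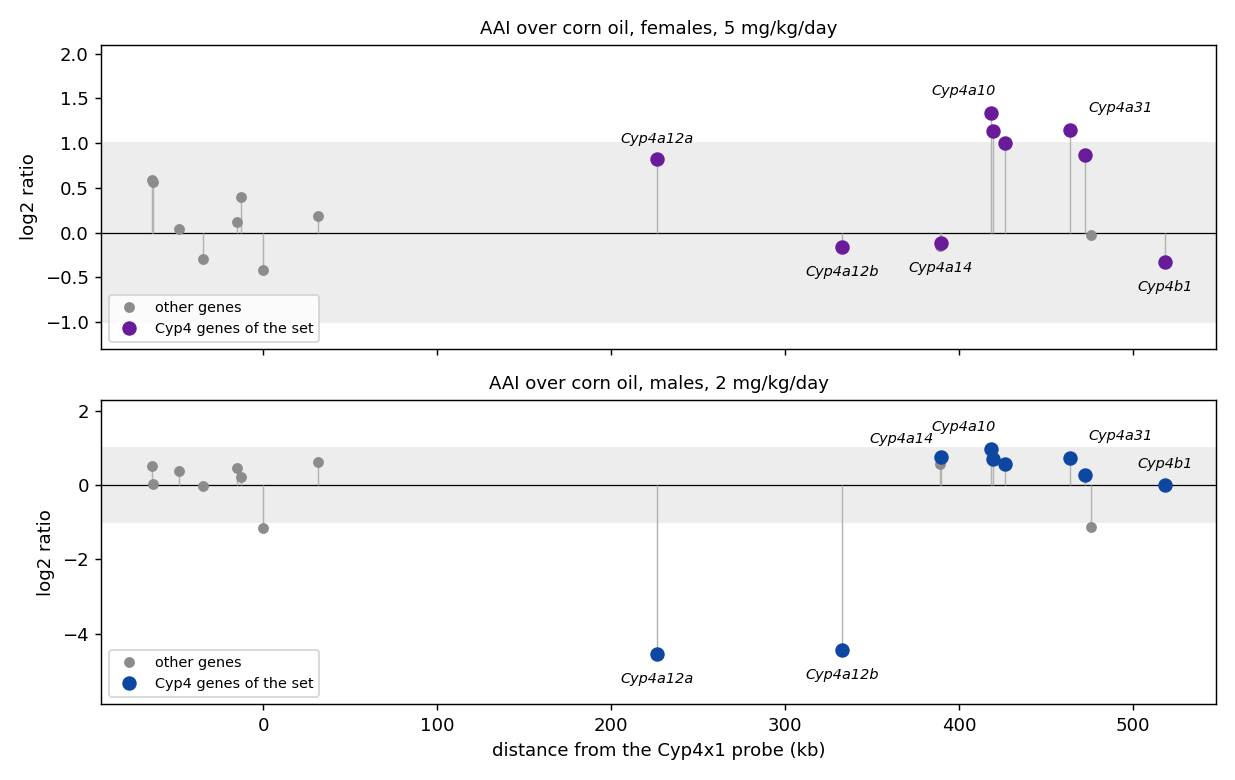
Log2 ratio of AAI over corn oil (vertical axes) in females (top) and males (bottom) against the distance of each probe from that of Cyp4x1 (horizontal axis, kb) in the chromosome 4 region, for probes above background in all pools. Colored points are Cyp4 genes of the set and gray points other genes or unnamed probes, with the range under 2-fold shaded. Cyp4a12a and Cyp4a12b at 226 and 333 kb are the lowest points in males. The gray points of Cyp4x1 (-1.15) and the pseudogene Cyp4b1-ps2 (-1.13) also lie below the shaded range there.

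Of 11 further Cyp4 genes, 9 had a probe. None differed 2-fold after AAI in females. In males Cyp4x1, an orphan enzyme known from brain, was lower, with 8.27 and 7.85 in females, 9.12 and 7.96 in males and a ratio of -1.15. These values come from its brighter probe, and another Cyp4x1 probe was not well above background in any pool. Cyp4f37 was not well above background in either corn oil pool and had 4.88 in AAI females and 6.03 in AAI males, a signal at least 2.99-fold higher in AAI males than in corn oil males. Cyp4f18, a leukotriene hydroxylase of neutrophils, had 10.09, 9.90, 10.75 and 9.85, and Cyp4f39, whose human counterpart acts in skin lipid synthesis, had 6.57, 6.84, 7.27 and 6.36, with ratios in males of -0.89 and -0.91. A further Cyp4f18 probe had -0.97 in males, and a dimmer one disagreed with 0.19. For Cyp4f16 (6.77, 6.87, 6.36 and 6.63), Cyp4f17 (10.49, 10.55, 10.52 and 10.43) and Cyp4f40 (7.14, 7.27, 7.04 and 7.08) all ratios lay between -0.10 and 0.27. Cyp4a29 was well above background only in AAI females. The pseudogene Cyp4b1-ps2, beside Cyp4a31 and not among the 11 genes, had 7.51, 7.49, 8.61 and 7.48, again highest in corn oil males. Its ratio was -0.02 in females and -1.13 in males, so it was also 2-fold lower in AAI males.

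The pathway around the Cyp4a genes was described from lists. For the list counts here and below, 1.37% of all genes were 2-fold higher and 3.09% lower with AAI in females. In males these shares were 3.51% and 4.59%. Of 22 PPARα targets outside the family, 1 was 2-fold lower in females (Vnn1, a pantetheinase, -1.18) and none was higher, with a median log2 ratio of -0.11. In males none was lower and 3 were higher, Cidec with 2.48, Acot3 with 1.98 and Pdk4 with 1.93, while the median was -0.28. Cidec, a lipid droplet protein, is also made in fat, and Pdk4, a kinase that restrains glucose oxidation, also in muscle. Genes of both tissues were higher in the AAI male pool, but their part in these values was not tested. In females, the muscle and fat genes had median log2 ratios of 4.65 and 0.56, and Pdk4 and Cidec had -0.11 and 0.26. Acot3, an acyl-CoA thioesterase, is also in the list of female-biased genes. Ehhadh, a bifunctional enzyme of peroxisomal beta-oxidation that is classically induced with Cyp4a10, had 0.37 in females and -0.44 in males. Ppara itself had 12.38 and 11.78 in females and 12.98 and 13.03 in males, with ratios of -0.60 and 0.05, the latter with a sign that changed between settings. Its coactivator Ppargc1a had -0.90 in females and 1.29 in males.

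Of 16 genes of peroxisomal beta-oxidation, none differed 2-fold in females (median -0.08). In males 1 was higher, Abcd2, a transporter of very long-chain acyl-CoA, with 1.22, and 1 was lower, Crot, a carnitine octanoyltransferase, with -1.60, and the median was -0.44. The corn oil males had a median of 0.63 over corn oil females for these genes. Of 7 dehydrogenases that can complete omega-oxidation, Adh7 was lower in both sexes, with -1.07 and -1.03, and the others lay between -0.89 and 0.31. Por, the reductase that passes electrons to all microsomal P450 enzymes, had 14.78 and 15.09 in females and 15.19 and 15.69 in males, with ratios of 0.31 and 0.50.

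Genes known to be male-biased in liver were mostly lower in AAI males, like the Cyp4a12 genes, and female-biased genes were mostly higher. Of 15 male-biased genes other than Cyp4a12a and Cyp4a12b, 10 were lower after AAI in males, beside 4.59% of all genes. None was higher, beside 3.51%, and the median log2 ratio was -1.47. Slco1a1, an organic anion transporter, had -5.78, Elovl3 -5.71 and Cyp7b1 -3.06. In females 4 were lower, among them Mup20, a major urinary protein, with -3.89, and Gstp1, a glutathione transferase, was higher with 1.55. Of 15 female-biased genes measured, 9 were higher in males after AAI, beside 3.51% of all genes. The median was 1.98, or 1.30 with the mean of all probes. The cytochrome P450 genes Cyp2b9 and Cyp2b13 had 5.28 and 3.87, while Cyp3a16 was lower with -1.23. Not all genes of this list showed a female bias here. With corn oil, 12 of 16 were 2-fold higher in females, and Cyp3a16 had a log2 ratio of males over females of 0.39. In females 1 of 16 was lower, Cyp3a44 with -3.47. In the male-biased list, 11 of 15 genes were 2-fold higher in males with corn oil, beside 3.83% of all genes. Moxd1 and Cspg5 had -0.09 and -0.18 in that comparison. For both lists, the AAI comparison in males and the corn oil comparison of the sexes share the corn oil male array. A value that is off on this array alone enters both. Such lists hold genes chosen for a sex difference in liver and were not compared with other lists by a test.

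**Figure D5:**
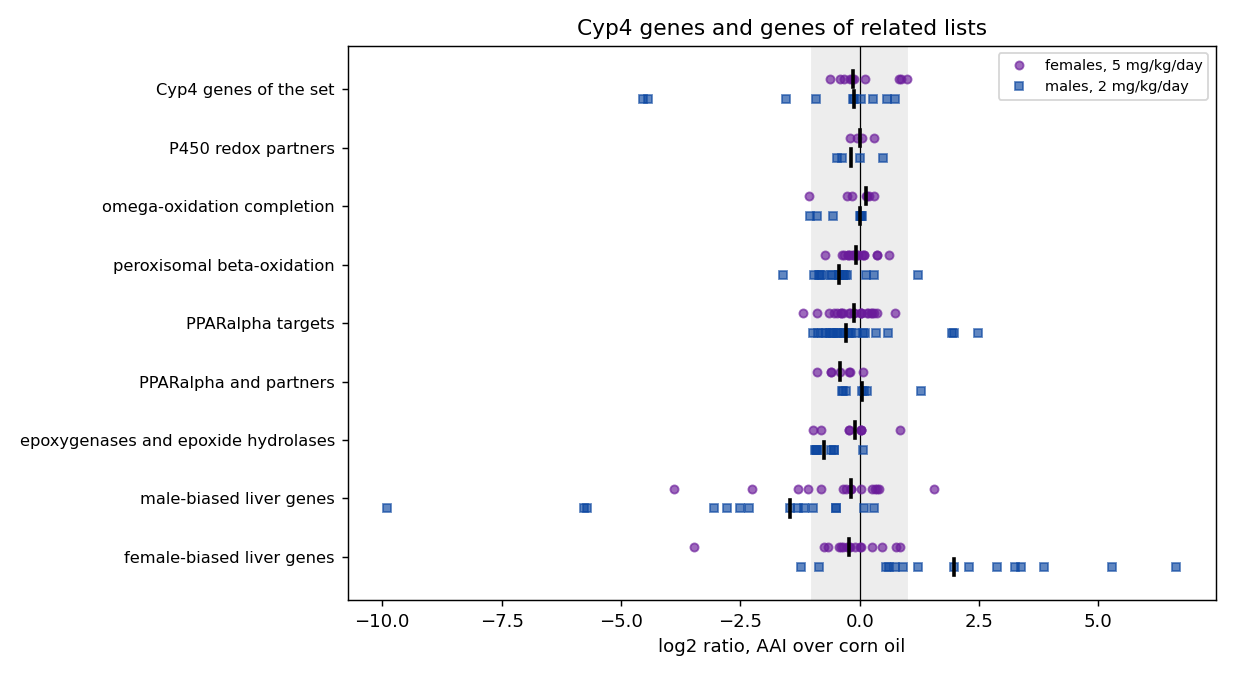
Log2 ratio of AAI over corn oil (horizontal axis) for the Cyp4 genes and the genes of 8 lists (rows), circles for females and squares for males, 1 point per gene with the median as a black bar and the range under 2-fold shaded. The male-biased list lies at a median of -1.47 and the female-biased list at 1.98 in males, and the point of Hsd3b5 far to the left is a bound, because its probe was not well above background in AAI males.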

How the data were processed

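The authors hybridized 1 pool of liver RNA per group to an Agilent SurePrint G3 mouse array, quantified the scans (Feature Extraction 10.5.1.1) and deposited an intensity per spot, background-subtracted but not normalized between arrays. This processed intensity equals the background-subtracted signal, within a small tolerance and with no multiplicative trend correction, at 100% of spots well above background in AAI females. In corn oil females, AAI males and corn oil males this share was 8.57%, 14.7% and 7.38%. They also deposited a table of quantile-normalized intensity. Here, log2 processed intensity was averaged over the spots of a probe, without control and outlier spots (70 to 234 per array; no spot saturated), and quantile normalized over 56495 probes measured on all 4 arrays (Python 3.11.15, numpy 2.4.6, pandas 2.3.3), which was tested on simulated data. A fold is 2 to the power of the log2 ratio, and genes were counted at 2-fold where well above background in at least 1 pool, with a bound for the dim side. Further settings used 75th percentile scaling, normexp (limma 3.58.1), no multiplicative trend correction, the deposited normalized intensity, the mean of all probes, a 3-fold limit and no filter on dim probes. Array files give no counts, and precision is limited by 1 array per group.

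The members, gene lists and the rule for named genes (all members, other Cyp4 genes, Ppara, at most 3 genes per direction of a list at 2-fold, and the 5 nearest genes) were chosen with earlier results of these data known. Ehhadh and Por were named after their values were seen. Probe coordinates are those of the files (mm9). Probe sequences come from the files. Gene names of 2 files that read as dates were taken from the other files. Some genes that the rule names are not reported here.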

Additional observations from a re-analysis of the deposited data

Results flagged for a closer look

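Cyp4a12a had a log2 ratio of AAI over corn oil of 0.82 in females (5 mg/kg/day) and of -4.54 in males (2 mg/kg/day), opposite directions with 1 pool of each sex and treatment. The difference between the sexes was not tested. Over the 6 settings the ratio lay between 0.55 and 0.89 in females and between -4.60 and -4.35 in males. These ratios rest on 1 probe, with 7.07 and 7.89 in females, that is also listed for Cyp4a12b. The Cyp4a12b probe had -0.16 in females.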

How the results depend on the processing

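With 1 array per group, no replicate could be left out. No paired analysis was possible because each group has only 1 array. All 10 members kept their direction under the 5 other settings for ratios in both comparisons of AAI with corn oil. In females, 2 members were higher at 2-fold with the mean of all probes in place of 0, beside 403 of 31698 genes. In males, those lower numbered 4 with normexp and without the trend correction, where Cyp4f14 passed with -1.06 and -1.07, and 2 at 3-fold, in place of 3. Of all 30539 genes, 637 were lower with normexp, 1466 without the trend correction and 510 at 3-fold. With AAI, the count of members higher in males was 2 without the trend correction, 2 with the deposited normalized intensity and 0 at 3-fold, in place of 1. Of all 31494 genes, 1000, 1063 and 441 were higher in the same order.

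Over all genes with normexp, those higher and lower numbered 139 and 341 in females, 539 and 637 in males, 471 and 222 for males over females with corn oil, and 490 and 166 with AAI. At 3-fold they numbered 127 and 225, 471 and 510, 378 and 155, and 441 and 112. Without the filter on dim probes, 1078 were higher in females, 1793 higher and 2240 lower in males, 1823 higher and 1253 lower for the sexes with corn oil, and 1111 lower with AAI. Scaling to the 75th percentile gave 623 higher and 742 lower genes in females, so that 54.4% of the counted genes were lower in place of 69.3%, and 37.2% in place of 26.4% for males over females with AAI. The cause of the shifts with normexp and with this scaling was not tested.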

Other observations

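Of 8 genes in a list headed epoxygenases and epoxide hydrolases, which also holds Cyp2e1 and Cyp2u1, none differed 2-fold in either sex. Their median log2 ratio was -0.10 for females and -0.75 for males. Ephx2, the soluble epoxide hydrolase, had 16.50 and 16.27 in females and 17.35 and 16.44 in males. Of 11 genes of growth hormone and androgen signaling, none differed 2-fold in males, where the median was -0.29. In females Socs2, a STAT5-induced inhibitor, and Onecut1, a liver transcription factor, were lower, with -1.15 and -1.31, and the median was -0.51, or -0.12 with the mean of all probes. Ephx2 was named after its values were seen.

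An unnamed probe at 389 kb from the Cyp4x1 probe, next to that of Cyp4a14, had log2 ratios of -0.16 in females and 0.58 in males, beside -0.12 and 0.75 for Cyp4a14.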
